A study of Homo sapiens with 28 samples.

Results

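Among the genes read in HEK293T cells by nucleotide-recoding sequencing, 7 are copies of replication-dependent histone genes that have a near-identical partner elsewhere in the genome. They are a pair of HIST2 H3 genes, a pair of HIST2 H4 genes and a pair of HIST2 H2A genes on chromosome 1, and the H2B gene H2BFS on chromosome 21. All 7 were present, of 24678 genes with an exonic read under the main alignment, and all 7 were among the 12449 genes that passed the filter on low counts. They were chosen from a measured result, taken here to be their read counts in cells with and without label. That contrast is given only as a description.

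HEK293T is an established human embryonic kidney line, here of the genotype WT. Cells received 100 µM 4-thiouridine (s4U) for 2 h or none. RNA made during that time incorporates s4U, and chemistry applied after RNA isolation turns the base into one sequenced as C. New RNA is thus recognised by its T-to-C mismatches. The 18 libraries analysed used 3 chemistries: NaIO4 with TFEA at pH 5.2, iodoacetamide, or OsO4 with NH3. Each chemistry was run under drop-out conditions and under improved handling conditions, names the labels do not define further, with 2 labelled libraries and 1 unlabelled library for each. By the series' design text, common protocols were set against ones meant to lose less labelled RNA and fewer reads with mismatches. The labels do not say that replicates came from separate cultures, so p-values measure only the spread between these libraries. The choice of members also names mismatch shares and both handlings. Tests of the members on those values may therefore not be independent of the choice.

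Replication-dependent histone genes supply the core histones that package newly copied DNA. Their mRNAs are made in S phase, lack introns, and end in a stem-loop bound by SLBP instead of a poly(A) tail. The mRNAs are degraded quickly when DNA synthesis stops. H3 and H4 form the central tetramer of the nucleosome, and H2A and H2B join it as dimers. The genes lie in clusters with many similar copies, so a short read can match more than 1 of them.

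The identifiers of the members are ENSG00000203852 and ENSG00000203811 for H3, ENSG00000270882 and ENSG00000270276 for H4, ENSG00000272196 and ENSG00000203812 for H2A, and ENSG00000234289 for H2B. The count table pairs none of them with a symbol. Histone types follow the list by which the members were chosen, and the files do not say which identifier is which RefSeq copy. Within the pairs, the table sets 2 groups of 3 apart. Summed over 7 alignments, so that 1 read can count more than once, it marks 82 reads as ambiguous between members. These fall in 6 combinations, and all of them join members of the same group. ENSG00000203852, ENSG00000270882 and ENSG00000272196 form one group and are called copy 1 of their pair here. ENSG00000203811, ENSG00000270276 and ENSG00000203812 form the other and are called copy 2. The H2B gene shared no ambiguous read with another member.

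RefSeq (GRCh38.p14) places the pairs close together on chromosome 1. HIST2H4A (H4C14) lies at chr1:149832657-149833052 on the plus strand and HIST2H4B (H4C15) at chr1:149844488-149861240 on the minus strand. HIST2H3C (H3C14) lies at chr1:149840687-149841208 on the minus strand and HIST2H3A (H3C15) at chr1:149852608-149853125 on the plus strand. HIST2H2AA3 (H2AC18) lies at chr1:149842218-149842750 on the minus strand and HIST2H2AA4 (H2AC19) at chr1:149851061-149851594 on the plus strand. H2BFS (H2BC12L) lies at chr21:43565182-43565648. In each pair, therefore, the copies face opposite ways.

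The sequences around the start were compared within each pair. All but 50 of these bases lie before the start, so they do not show how far reads of the copies can be told apart. RefSeq promoters were listed for 6 of the 7 members. Over the stretch from upstream to 50 bases past the start, the copies were identical at all 296 compared bases for H3, all 300 for H4 and all 299 for H2A. By contrast, H3C14 and the neighbouring H3C13 matched at 36.4% of 297 bases. The comparison allowed small shifts but no gaps, so related sequences that are out of register can also match poorly in it. Below are the 150 bases that both copies of each pair share before the starts given in the promoter table, with matches to CCAAT or TATAA on either strand in capitals.
H3 pair: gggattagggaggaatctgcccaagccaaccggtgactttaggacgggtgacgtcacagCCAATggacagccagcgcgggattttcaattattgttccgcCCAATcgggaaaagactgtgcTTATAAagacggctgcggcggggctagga
H4 pair: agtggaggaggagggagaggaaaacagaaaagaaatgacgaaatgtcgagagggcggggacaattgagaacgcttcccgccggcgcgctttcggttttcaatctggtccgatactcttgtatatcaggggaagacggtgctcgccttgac
H2A pair: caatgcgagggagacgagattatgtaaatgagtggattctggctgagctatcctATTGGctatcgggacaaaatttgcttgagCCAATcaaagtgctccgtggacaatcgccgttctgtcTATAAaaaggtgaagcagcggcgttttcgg
The H3 run lies at chr1:149841209-149841358 on the minus strand and at chr1:149852454-149852603 on the plus strand. The H4 run lies at chr1:149832507-149832656 on the plus strand and at chr1:149861160-149861309 on the minus strand. The part of the latter up to base 149861240 lies inside the span RefSeq gives for HIST2H4B, which reaches further than the start used for its promoter. The H2A run lies at chr1:149850911-149851060 on the plus strand and at chr1:149842752-149842901 on the minus strand. The H3 and H2A runs each hold 2 CCAAT matches and a TATAA match, which in H3 overlaps its own reverse complement. The H4 run holds neither. Of 35116 promoters in windows of the same 150 bases, 23.5% hold CCAAT and 12.1% hold TATAA.

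Libraries held 1935777 to 9962345 reads under the main alignment, HISAT-3N, an aligner built to tolerate base conversions. Reads that named no gene were 32.7% to 41.5% of a library under drop-out handling and 17.5% to 25.7% under improved handling. In labelled libraries, 13.7% of exonic reads had a T-to-C mismatch under drop-out and 27.3% under improved handling (means of 6). In unlabelled libraries the means were 2.86% and 3.12% (n = 3 each). The count table names no symbols, so markers of the cell line could be looked up only in the authors' deposited rate table. It lists VIM, NEFM and HNRNPA1 of 5 markers searched, and none of PTPRC, HBB, ALB, COL1A1 and PECAM1.

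With label, reads on copy 1 of each pair were more frequent than without it under both handlings, while copy 2 lay nearer to no change and, for H3 and H2A under improved handling, below it. This is the contrast that chose the members, so the calls below describe the choice and support nothing. Of 12449 genes, edgeR's quasi-likelihood fit called 15 higher with label under drop-out handling (0.12%) and 22 under improved handling (0.177%), at a Benjamini-Hochberg adjusted p under 0.05. Under each handling 4 of the 7 members were among them, and these 4 made up part of the 9 genes called under both. They were the 3 first copies and the H2B gene. The log2 change with label was 1.34 under drop-out and 1.56 under improved handling for H3 copy 1, 2.10 and 1.70 for H4 copy 1, and 1.60 and 1.38 for H2A copy 1. It was 2.25 and 1.36 for the H2B gene. The second copies had log2 values of 0.06 and -0.23 for H3, 0.60 and 0.31 for H4, and 0.19 and -0.32 for H2A. H4 copy 2 was thus the nearest outside the threshold under drop-out handling, and the H2B gene under improved handling was the weakest inside it. Without replicate 1 of the labelled iodoacetamide drop-out libraries, H4 copy 2 was called as well. The H2B call under improved handling was kept in 7 of 12 fits that each left out 1 labelled library. Most of these 7 left out a drop-out library, and all but 1 of the fits without an improved library lost the call.

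Summing both copies reduced the change with label. For each labelled library, the summed CPM (read count scaled by TMM to a common library size) of a pair was set against the unlabelled library of the same chemistry and handling. The log2 ratio of the H3 sum was 0.55 ± 0.12 under drop-out and 0.36 ± 0.38 under improved handling (SD, n = 6 each), against 1.34 ± 0.30 and 1.55 ± 0.41 for copy 1 alone. The H2A sum gave 0.52 ± 0.10 and 0.04 ± 0.17, against 1.60 ± 0.45 and 1.38 ± 0.42 for copy 1. The H4 sum gave 1.18 ± 0.32 and 0.88 ± 0.47. The ratios of 1 chemistry and handling share their unlabelled library.

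The share of a pair's reads on each copy differed with label too. It recombines the counts that chose the members, so it is a description and supports nothing. In labelled libraries, copy 1 held 48.5% ± 6.6 of the H3 pair's reads (SD, n = 12), from 36.2% to 57.4%. In unlabelled libraries it held 24.7% ± 5.6 (n = 6), from 16.7% to 31.4%, below every labelled library. Copy 1 of H4 held 52.4% ± 6.5 with label and 29.1% ± 6.5 without. The highest unlabelled value of H4, 38.7%, lay just above the lowest labelled one, 37.8%. Copy 1 of H2A, the partner of H2B in its dimer, held 32.6% ± 4.1 with label and 14.4% ± 3.9 without, and the ranges did not overlap.

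Within labelled libraries, the reads of a pair divided differently with and without a mismatch. Among reads that carry a T-to-C mismatch, called converted, copy 1 held 72.7% ± 7.7 of the H3 pair in labelled libraries, and among the other reads 22.2% ± 6.6. The share was 64.9% ± 6.6 against 31.9% ± 9.3 for H4 and 57.5% ± 4.6 against 14.5% ± 3.4 for H2A (SD, n = 12). Converted reads had the higher copy 1 share in 12 of 12 labelled libraries for each pair. The mean gap was 50.5 points for H3, 33.0 for H4 and 42.9 for H2A. The smallest gap in 1 library was 5.40 points, for H4. Unlabelled libraries showed the same order in 6 of 6 for each pair, with mean gaps of 64, 35.9 and 36.7 points, on few converted reads.

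The change came with the first mismatch. Over all labelled libraries, copy 1 took 21.4% of H3 reads with no mismatch (366 of the pair's reads on copy 1 and 1341 on copy 2; 95% Wilson interval 19.6% to 23.5%). It took 73.1% of those with 1 mismatch (interval 70.0% to 76.0%) and 74.0% of those with 2. H4 copy 1 went from 27.0% (24.4% to 29.8%) at no mismatch to 70.4% (66.9% to 73.7%) at 1. H2A copy 1 went from 14.9% (13.9% to 15.8%) to 58.0% (55.7% to 60.2%). From 1 to 3 mismatches the shares stayed between 71.4% and 74.0% for H3, 65.7% and 70.4% for H4, and 55.5% and 58.8% for H2A. At 4 mismatches the H4 share was 46.0% (37.6% to 54.7%), and at 5 or more it was 61.0% (49.9% to 71.2%). The H2A share was 53.4% (46.0% to 60.6%) at 4 and 40.2% (31.7% to 49.2%) at 5 or more. The H3 share was 79.1% and 75.0%. These intervals pool libraries and cover counting error only.

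Reads without a mismatch were compared between labelled and unlabelled libraries within each handling, since pooled reads mix the handlings in different proportions. Copy 1 of H3 took 21.2% of them with label (19.1% to 23.5%) and 24.7% without (21.7% to 28.0%) under drop-out handling. Under improved handling it took 22.2% (18.2% to 26.7%) and 16.8% (13.8% to 20.4%), the opposite order. H4 copy 1 took 25.3% with label and 27.0% without under drop-out, and 33.3% (27.3% to 39.9%) and 25.4% (20.6% to 30.8%) under improved handling. H2A copy 1 took 15.4% and 14.3% under drop-out, and 12.6% (10.8% to 14.7%) and 10.0% (8.63% to 11.6%) under improved handling. The labelled and unlabelled intervals overlapped for each pair under each handling. Unlabelled reads with 1 mismatch went to copy 1 in 83.8% of 74 H3 reads (62 on copy 1 and 12 on copy 2), 60.5% of H4 reads and 48.5% of H2A reads.

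**Figure D1:**
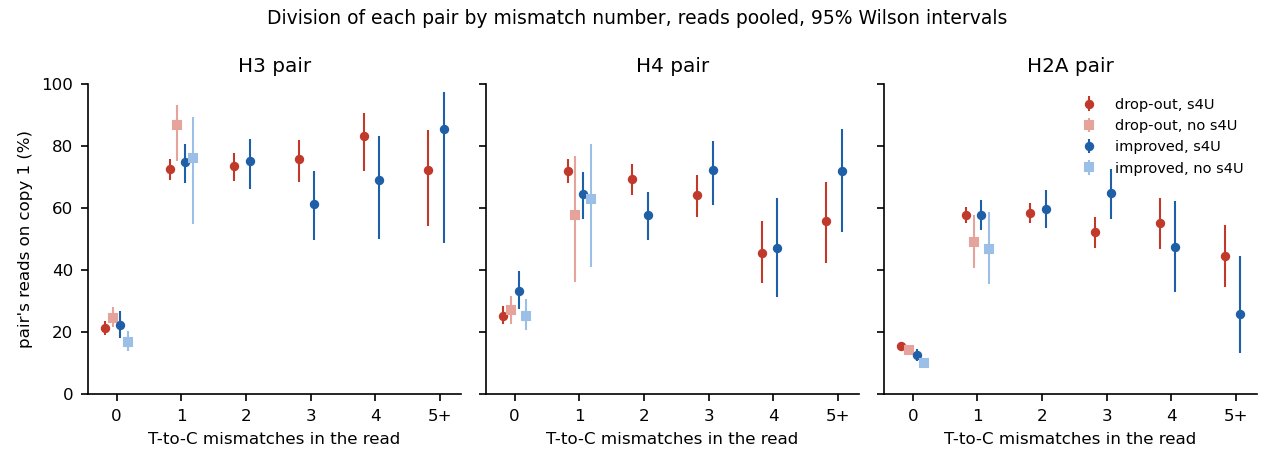
Percent of a pair's exonic reads on copy 1 (vertical axis) by the number of T-to-C mismatches in the read (horizontal axis) for the H3, H4 and H2A pairs, with reads pooled over libraries and 95% Wilson intervals. Every group lies low at 0 mismatches and above 40% at 1 mismatch; unlabelled libraries are drawn for 0 and 1 only, since they hold almost no reads beyond.

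The share of converted reads therefore differed between copies of the same gene. It was 77.9% ± 9.9 for H3 copy 1 in drop-out libraries and 76.6% ± 7.5 in improved ones (SD, n = 6 each), and 26.8% ± 7.8 and 28.4% ± 9.2 for H3 copy 2. For H4 it was 77.5% ± 6.1 and 77.1% ± 10.6 for copy 1, and 39.1% ± 8.0 and 54.3% ± 11 for copy 2. For H2A it was 72.2% ± 7.6 and 76.0% ± 6.6 for copy 1, and 28.1% ± 8.4 and 25.7% ± 3.8 for copy 2. Within a handling, the labelled shares of copy 1 lay above those of copy 2 without overlap, except for H4 under improved handling, where copy 1 began at 59.0% and copy 2 reached 66.7%. The H2B gene, with no partner among the members, had 64.4% ± 13.3 and 69.6% ± 12.9. Of the 4084 genes that kept a minimum of 20 reads in all labelled libraries, 2.11% had a mean share of 60% or more, and all 3 first copies did. The choice of members names mismatch shares, so this describes the members and supports nothing.

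The unlabelled background was also uneven. H3 copy 1 had 22.6%, 17.4% and 19.2% converted reads in the 3 unlabelled drop-out libraries and 12.7%, 14.3% and 25.0% in the 3 improved ones. H3 copy 2 had 0.431%, 1.88% and 1.81% under drop-out and 1.82%, 0% and 0% under improved handling. The zeros are 0 of 55 and 0 of 91 reads. H2A copy 1 had means of 19.9% and 17% and H2A copy 2 of 3.90% and 2.52%. H4 copy 1 had means of 9.10% and 14%, and H4 copy 2 of 2.89% and 2.97%. The median gene had 2.24% under drop-out and 2.75% under improved handling (3930 genes). The first copies were above it in each unlabelled library, and the second copies lay between 0% and 5.31%.

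**Figure D2:**
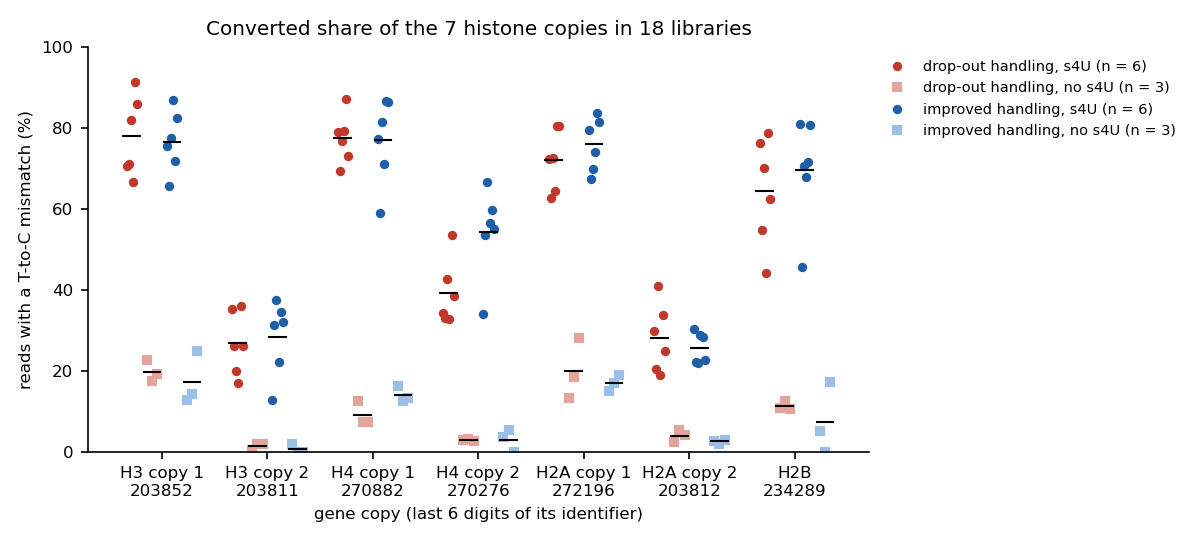
Percent of exonic reads that carry a T-to-C mismatch (vertical axis) for each histone copy; points are libraries, squares unlabelled ones, and bars group means. Labelled means of copy 1 lie above those of copy 2 in each pair, and H4 copy 2 is the member whose labelled mean differs most between handlings, 39.1% against 54.3%.

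Most genes had a larger converted share under improved handling in the edgeR fit of the next paragraph. The copies were first put to another test, for which no share of all genes is given. The choice of members names mismatch shares under both handlings, so that test describes the members and is not independent. An exact permutation test, two-sided and within chemistry (smallest possible p 0.00926), was run for the 6 members that had 20 or more reads in all labelled libraries. Only H4 copy 2 had a p under 0.05, at a difference of 15.1 points (p = 0.0185 by exact permutation, n = 6 per handling, the smallest of 6 computed and not adjusted). Its values ran from 32.9% through a median of 36.4% to 53.6% under drop-out, and from 33.9% through 55.8% to 66.7% under improved handling. The call was lost at 2 mismatches (10.5 points, exact permutation p = 0.102) and under HISAT2 VL (3.54 points, exact permutation p = 0.25), and at 3 mismatches the difference was -1.37 points. The ranges overlapped, since the lowest improved library fell among the drop-out ones. The other 5 changed by -2.43 to 3.80 points, with exact permutation p from 0.194 to 0.926, which does not show that they were equal.

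Against the whole table, H4 copy 2 was not unusual, and the members' values here again only describe them. A fit of converted against unconverted reads in edgeR, over genes with 50 or more reads per labelled library, called 1631 of 1992 genes higher under improved handling (81.9%). H2A copies 1 and 2 were tested there and not called (adjusted p = 0.304 and 0.629). At a minimum of 20 reads, a setting chosen after seeing the data, H4 copy 2 was called (log2 odds ratio 0.87 ± 0.35 SE, adjusted p = 0.0241), beside 70.6% of 4084 genes called higher in that fit, and the other 5 members tested were not. The gene median rose from 12.5% to 24.7% between handlings (4084 genes). Summed over both copies, the share was 52.2% ± 11.2 and 51.3% ± 6.5 for H3, 58.7% ± 8.8 and 66.3% ± 9.1 for H4, and 42.7% ± 9.3 and 41.8% ± 4.6 for H2A (SD, n = 6, drop-out then improved).

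The levels of all 7 copies were lower under improved handling. The choice of members names reads under both handlings, so this fall is a description and its p-values are no independent test. H3 copy 1 had 159, 206 and 225 CPM (lowest, median, highest) in labelled drop-out libraries and 22.2, 32.9 and 37.6 in improved ones. H3 copy 2 had 164, 188 and 280 CPM against 32.8, 35.2 and 39.6. The 2 sets of libraries did not overlap for either copy. In edgeR's fit copy 1 fell by 2.59 ± 0.16 on the log2 scale (SE, adjusted p = 2.89e-12) and copy 2 by 2.50 ± 0.16 (adjusted p = 7.05e-12).

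H4, which pairs with H3 in the tetramer, followed. Its copy 1 had 112, 145 and 285 CPM under drop-out and 21.4, 31.9 and 39 under improved handling, a log2 change of -2.36 ± 0.18. Copy 2 had 100, 145 and 188 CPM against 22.6, 28.7 and 30.6, a log2 change of -2.42 ± 0.16. H2A copy 1 had 279, 360 and 415 CPM against 45.3, 57.4 and 65.4 (log2 -2.68 ± 0.14), and copy 2 had 604, 710 and 912 against 105, 118 and 141 (log2 -2.62 ± 0.12). The H2B gene had 132, 153 and 158 CPM against 16, 24.6 and 33.3 (log2 -2.54 ± 0.17). Each lowest drop-out library lay above the highest improved one.

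All 7 fell at adjusted p from 8.83e-14 to 8.34e-11 in edgeR's fit, again as a description of the members. Of 12449 genes, 80.6% were called in either direction and 33.9% fell. Ranges without overlap in this direction were seen in 7 of 7 members and in 25.3% of genes. A called fall of at least 2 on the log2 scale, seen in 6.06% of genes, was seen in all 7. The median gene moved by 0.44 the other way, so the members' falls are larger still when read against it. The size of a fall also rests on the scaling. TMM factors of labelled libraries were 0.746 to 0.879 under drop-out and 1.15 to 1.24 under improved handling, which enlarges each fall. Without TMM, labelled CPM means were 135 and 37.3 for H4 copy 1 (drop-out, then improved). They were 120 and 32.5 for H4 copy 2, and 162 and 42.5 for H3 copy 2. Their ratios fell short of 2 on the log2 scale, and those of the other members did not. The fit on exonic and intronic reads together gave log2 changes of -3.37 to -2.95. The contrast is between handling conditions and does not show how many cells expressed these genes. The larger share of reads naming no gene under drop-out handling moved with the same contrast. Its part in the fall was not tested.

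Unlabelled libraries showed the fall too, and these values also only describe the members. H3 copy 1 had 81.9, 77.8 and 70.5 CPM in the unlabelled drop-out libraries and 10.4, 8.75 and 14.3 in the improved ones. H3 copy 2 had 179, 180 and 225 against 52.0, 34.4 and 40.6. The log2 changes over the 7 members ran from -2.80 (H3 copy 1, adjusted p = 5.34e-09) to -1.64 (H2B, adjusted p = 7.61e-05), and all 7 were called, beside 30.7% of genes that fell. None of the 7 overlapped between handlings, beside 33.2% of genes. The H2B gene was nearest to doing so, with 42.5, 27.1 and 25.8 CPM against 14.8, 5.00 and 12.9.

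**Figure D3:**
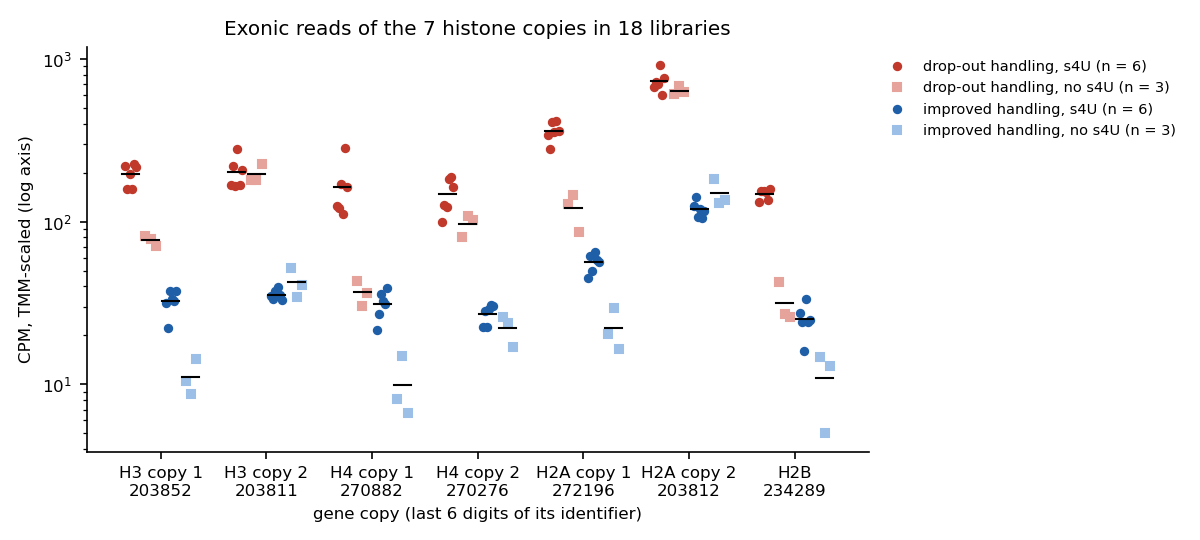
CPM of each histone copy (vertical log axis, TMM-scaled) in 18 libraries; points are libraries and bars group means. Improved handling libraries (blue) lie below drop-out libraries of the same label state (red) for all 7 copies, and within a handling labelled libraries lie above unlabelled ones for copy 1 of each pair and for H2B.

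The order of the 4 conditions differed between copies, though its labelled against unlabelled part is the contrast that chose the members. For H3 copy 1 it was labelled drop-out (196 ± 30.3 CPM), unlabelled drop-out (76.8 ± 5.8), labelled improved (32.4 ± 5.6) and unlabelled improved (11.2 ± 2.8), and no neighbours overlapped. H2A copy 1 had the same order, at 361, 121, 56.2 and 22.1 CPM, again without overlap. For H4 copy 1 and H2B, unlabelled drop-out (36.8 ± 6.4 and 31.8 ± 9.3) and labelled improved (31.1 ± 6.3 and 25.0 ± 5.6) lay within their spread. For H3 copy 2, labelled and unlabelled libraries lay within their spread under each handling, at 201 ± 45.0 and 195 ± 26.2 CPM and then 35.6 ± 2.6 and 42.3 ± 8.9. H4 copy 2 also overlapped between labelled and unlabelled libraries under each handling, at 148 ± 36.1 and 96.8 ± 14.6 CPM and then 27.2 ± 3.7 and 22.2 ± 4.7. H2A copy 2 was alike, at 730 ± 105 and 640 ± 36.0 under drop-out and 119 ± 13.1 and 150 ± 29.1 under improved handling. Against the unlabelled library of its own chemistry, its log2 ratio ran from -0.06 to 0.42 under drop-out. Under improved handling it was below 0 throughout, from -0.55 to -0.11.

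The count of these genes depended strongly on the aligner. The 7 members had 22506 exonic reads in all 18 libraries under HISAT-3N. HISAT2 gave 4069 (18.1% of that) under settings D, 4255 (18.9%) under ML and 39593 (176%) under VL. STAR gave 215, 165 and 160 (0.955%, 0.733% and 0.711%), so that no member had 20 reads in each labelled library there. The settings codes are not defined in the labels. Reads that STAR marked as aligned to more than 1 place were 13.4% to 19.1% of drop-out libraries and 4.58% to 7.39% of improved ones under settings D. How much of the gap in histone reads these hold was not tested.

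**Figure D4:**
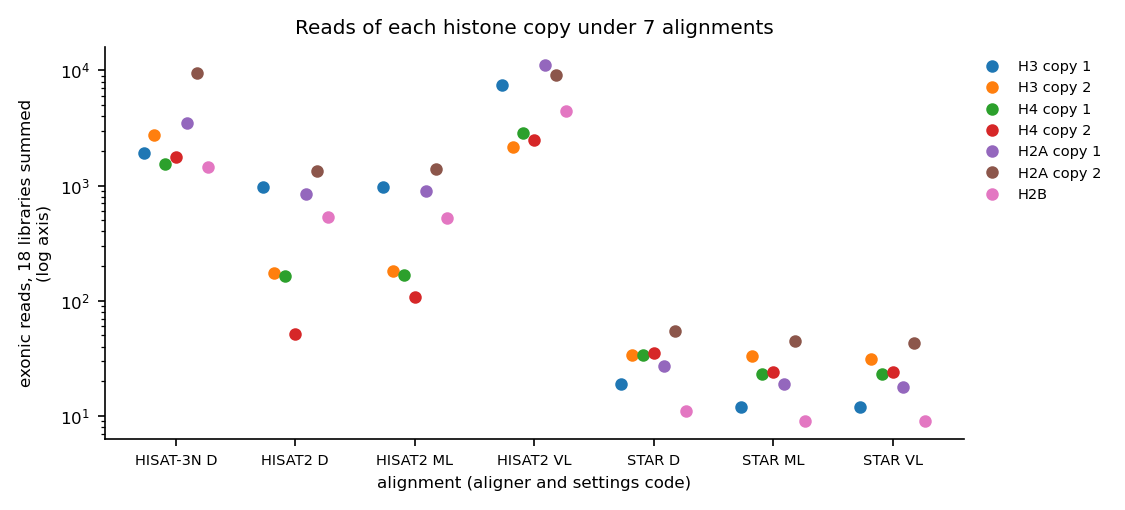
Exonic reads of each histone copy, summed over 18 libraries (vertical log axis), under 7 alignments. STAR gives the fewest reads for each copy, HISAT2 VL the most in total, 39593, and the order of the copies differs between HISAT-3N and HISAT2.

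Under HISAT2 the pairs divided differently and mismatches mattered less. Copy 1 took 85.9% of labelled H3 reads under D, 86.2% under ML and 77.3% under VL, with 82.1%, 78.2% and 77.7% of unlabelled ones. For H2A it took 38.6%, 39.7% and 55.7% with label and 39.5%, 37.3% and 54.4% without. HISAT-3N, pooled over the same libraries, gave copy 1 of H3 47.1% with label and 25.1% without. In labelled libraries, copy 1 of H3 took 90.3% of converted and 82.6% of unconverted reads under D and 88.1% and 84.4% under ML, the same order as under HISAT-3N with a smaller gap. Under VL it took 76.7% and 78.3%, the opposite order. Copy 1 of H2A took 39% of converted and 38.3% of unconverted reads under D, 35.5% and 42.7% under ML, and 51.2% and 62.4% under VL. Copy 1 of H4 took 52.1% and 56.6% under VL, again the opposite order to HISAT-3N. H4, with 43 to 123 labelled reads a copy under D and ML, is too thin there to read.

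The change with label depended on the alignment as well, and so did the background. The values with label again only describe the members. Under HISAT2 D the log2 change of the 6 members fitted ran from 0.21 to 0.70 under drop-out and from 0.10 to 0.80 under improved handling. Under ML it ran from 0.21 to 1.02 and from 0.20 to 0.87 for 6 members, and was 3.48 ± 0.99 and 2.77 ± 1.04 (SE) for the thinly read H4 copy 2, above any value under HISAT-3N. Under VL that of the 7 members ran from 0.65 to 0.98 and from 0.17 to 1.04. The copies of a pair lay close together under VL, at 0.65 and 0.73 for H3 and 0.78 and 0.75 for H2A under drop-out (copy 1, then copy 2), where HISAT-3N set them apart. The fall with improved handling did not go, with log2 changes of -2.89 to -2.13. Under D 6 of 6 members tested fell, under ML 7 of 7 and under VL 7 of 7. Called falls over all genes in these fits were 4254 of 12357, 4331 of 12515 and 4704 of 12880. Under VL, 35.8% of the members' reads in unlabelled libraries had a mismatch (3888 of 10853), from 32.4% for H2A copy 1 to 49.1% for H4 copy 2. The share of all exonic reads there was 6.90% to 11.3%. Under D the members had 2.81% and under HISAT-3N first and second copies stood apart as given above.

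The table of RNA degradation constants deposited by the authors names 1 of the 7 members, HIST2H2AA3, and only for NaIO4 with TFEA. Its constant was 0.767 under drop-out and 0.127 under improved handling, in a time unit not given. The authors' deposited table gives a log2 fold change of -2.58 and an adjusted p of 4.20e-08. This was the second lowest fold change of 2209 transcripts, and the constant was the 14th highest under drop-out and the 835th under improved handling. The median transcript of that table rose by 1.18 on the log2 scale, with 52.6% called higher and 0.679% lower. Under HISAT-3N with the same chemistry, neither H2A copy had a lower mean converted share under improved handling. It was 67.4% under drop-out and 73.4% under improved handling for copy 1, and 25.1% and 26.2% for copy 2 (n = 2 each). The constant and the share of converted reads are unlike measures, and the alignment behind the constants is not given. STAR left too few reads of these copies for the same comparison. The cause of the difference in direction between constant and share was not tested.

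**Figure D5:**
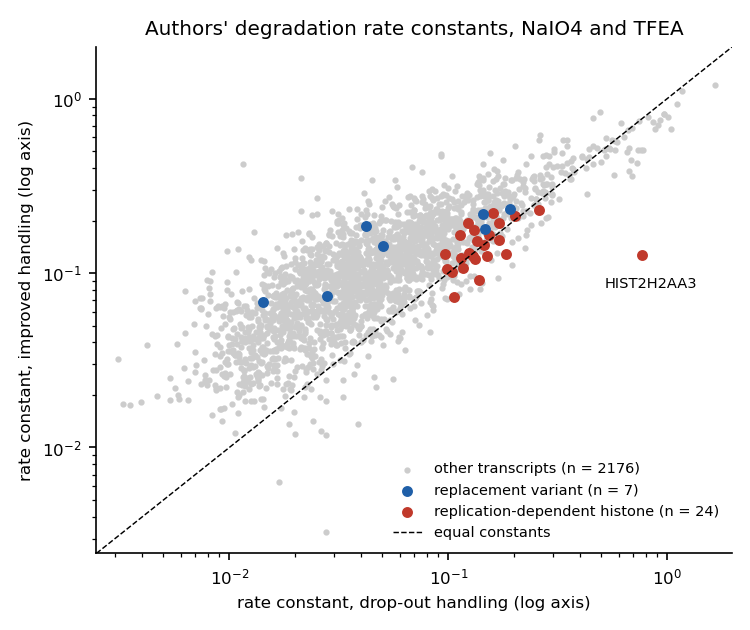
Degradation rate constants from the authors' deposited values for NaIO4 with TFEA, drop-out (horizontal log axis) against improved handling (vertical log axis); points are transcripts, and the dashed line marks equal constants. HIST2H2AA3 stands at 0.767 and 0.127, away from the other 23 replication-dependent histone transcripts, which lie near the line.

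Other replication-dependent histones in the authors' deposited table had median changes near 0. Of the 66 genes of this class, with HIST2H2AA3 left out, 23, 20 and 26 had a constant for NaIO4 with TFEA, iodoacetamide, and OsO4 with NH3. Their median log2 changes were 0.07, -0.13 and -0.14, beside 1.18, 1.14 and 1.19 over all transcripts. In the first chemistry 2 were called lower, HIST1H3B (log2 -0.60) and HIST1H2AG (-0.51), and 1 higher, HIST2H2BF (log2 0.67). In the second 3 were called lower, HIST1H3B (-0.84), HIST1H3H (-1.12) and HIST1H1C (-0.54). In the third none was called in the authors' deposited table. Background shares called higher were 52.6%, 48.9% and 48.1%, and lower 0.679%, 1.44% and 0.442%.

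The replacement variants, most of which are made throughout the cell cycle from polyadenylated mRNAs, were called in part. Of 8 genes, 7, 6 and 7 were listed, and 4, 3 and 4 were called higher and none lower in the authors' deposited table, with median log2 changes of 1.47, 0.73 and 1.21. H3F3A, a source of the variant H3.3, had a log2 change of 2.35 for NaIO4 with TFEA and 2.96 for OsO4 with NH3. H2AFY, which encodes macroH2A, had 2.21, 1.92 and 2.22. H2AFX, the H2A variant phosphorylated at DNA breaks, was called in no chemistry, at 0.28, 0.08 and 0.19, and neither was H1FX, a linker histone, at 0.60, 0.31 and 0.05. Of 12 factors of histone mRNA processing only CPSF3 and SYMPK were listed, with median log2 changes of 1.83, 1.67 and 1.66, and 2, 1 and 2 of them were called higher.

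Across the 18 libraries, the gene nearest to each first copy was another first copy. By Pearson correlation of log2 CPM among 12449 genes, H3 copy 1 was nearest to H2A copy 1 (r = 0.971) and then to ENSG00000196262, which is no member (0.966). H4 copy 1 was nearest to H2A copy 1 (0.960) and the H2B gene to H3 copy 1 (0.937). The second copies were nearest to genes that are no members: H3 copy 2 to ENSG00000126934 (0.995) and H2A copy 2 to ENSG00000197903 (0.997). Between the H3 copies r was 0.843 and between the H2A copies 0.847, whereas H3 copy 2 and H2A copy 2 had 0.990. All points share the 2 handlings, the label contrast that chose the members and the library depth, so these values describe likeness over this design and nothing more.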

How the data were processed

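The authors deposited counts: numbers of reads per library, aligner, settings code, gene and intronic flag, with other values in the deposited table giving T-to-C mismatches and T positions per read. The submitters' processing notes name cutadapt, HISAT2, STAR, HISAT, Picard, HTSeq, DESeq2 and the build GRCh38, without roles or versions. The authors' deposited rate table holds rate constants, other values with no time unit, their log2 fold change (improved over drop-out handling) and an adjusted p-value, per the labels.

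Exonic reads under HISAT-3N D were summed per gene, filtered with filterByExpr, scaled by TMM and fitted with edgeR 4.0.16 (quasi-likelihood) over 12 groups of 18 libraries, with contrasts averaged over chemistries. The 6 unlabelled groups hold 1 library each, so the spread comes from the labelled groups. DESeq2 1.42.0 was an alternative. Reads that name no gene stayed out of the tests. Another 10 samples, from 5 further chemistries, were not analysed here. The members and lists were chosen with earlier results of these data known. Copies 1 and 2 were set by shared ambiguous reads. Genes named are the members, the listed histone genes and, per member, the most correlated genes. Between the handlings of a chemistry, read counts of same-numbered replicates did not deviate together (correlations -3.97e-05 to 0.00576). In each chemistry, drop-out replicate 2 had a lower converted share of exonic reads than replicate 1 (10.4% and 15.1%, 11.1% and 15.9%, 12.5% and 17.4%). Under improved handling the order was mixed. The 6 labelled libraries of a handling may therefore not be independent. Reads marked ambiguous, most of them with a gene outside the members, were left out. They were 1678 for H2A copy 1, 212 for H2A copy 2 and 332 for H3 copy 2, and 5 or fewer for each other copy of a pair. The models were tested on simulated data.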

Additional observations from a re-analysis of the deposited data

How the results depend on the processing

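The fall of all 7 members with improved handling kept its direction and its side of the threshold under RLE factors, DESeq2, no low-count filter, all reads, a replicate block and HISAT2 (6 members tested under D), and 7 were called without any 1 labelled library. This fall and the converted shares below describe the members and are no independent test. No share of all genes is given for the permutation test. The count of members whose converted share passed a test between handlings was 1 by unadjusted exact permutation. It stayed 1 without any 1 labelled library. In edgeR on converted and unconverted reads it was 1 of 6 members tested at a minimum of 20 reads (added after seeing the data) and 0 of 2 at 50 reads, where only the H2A copies could be tested. It was 0 at 2 or 3 mismatches, under HISAT2 VL, and with the replicate block, where the H4 copy 2 difference was the same 15.1 points over fewer arrangements (exact permutation p = 0.0625, smallest possible 0.0312). It was also 0 under HISAT2 D and ML, where only H3 copy 1 and H2A copy 2 could be tested. It was 2 after subtracting the unlabelled library, when H2A copy 1 joined at 6.75 points. At 3 mismatches the H4 copy 2 difference turned to -1.37 points. The cause was not tested. By the labels, same-numbered replicates share only a number, though drop-out replicate 2 had the lower converted share of exonic reads in each chemistry. The replicate block left 7 members called for handling and 4 for label.

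The change with label chose the members, so its calls by edgeR are a description. Under HISAT2 D, 1662 and 1707 of all 12357 genes had an unadjusted p under 0.05 in either direction (drop-out, then improved handling). Under ML these were 1561 and 1243 of 12515. Members called higher, 4 at each handling, were 0 and 0 under HISAT2 D (21 and 49 of all genes; 3 and 2 members at an unadjusted p under 0.05), 1 and 0 under ML (14 and 9 of all genes; 5 and 3 members unadjusted), and 6 and 2 under VL (24 and 14 of all genes). Without 1 labelled library they were 4 to 5 at drop-out and 3 to 4 at improved handling, where leaving out any 1 of 5 improved libraries lost the H2B gene.

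The share on copy 1 was 48.5% (H3), 52.4% (H4) and 32.6% (H2A). It was 72.7%, 64.9% and 57.5% in converted reads and 22.2%, 31.9% and 14.5% in unconverted reads. As means over libraries it was 85.5% (H3) and 38.1% (H2A) under HISAT2 D, 85.3% (H3), 34.7% (H2A) and 61.5% (H4, on few reads) under ML, and 77.9% (H3), 54.3% (H4) and 54.4% (H2A) under VL. Without 1 labelled library it was 47.7% to 49.6%, 51.6% to 53.8% and 31.9% to 33.2%. STAR alignments left too few reads for a member test. H2B had as few as 17 reads in a labelled library, so its converted share had no permutation test.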
